A study of Mus musculus with 12 samples.

Results

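The arrays described here are the 6 of 12 in the series that the labels call normal pancreas, from mice of genotype Pdx1/Cre aged 6 months. The other 6 arrays carry the Traffic-HuR transgene in addition to Pdx1/Cre at the same age, and they enter no result here. One array was hybridised per sample with biotin-labelled cDNA made from total pancreas RNA, and each value is the log2 array signal of 1 gene on 1 array. Genes were taken as the brightest row of each gene symbol, which gave 30143 genes. All 6 controls carry Cre driven by the promoter of Pdx1, a transcription factor gene active in the pancreatic epithelium, so no array in the group is from a mouse without Cre. Neither the sex of the mice nor the animal behind each array is given, so the spread between these samples may be technical in part. The p-values come from re-pairing the values of these 6 arrays. They do not measure that spread and do not extend to other mice. Mice were killed by cervical dislocation, the tissue was kept in RNAlater, and RNA was extracted with Qiazol, per the labels. Elavl1, the gene of the HuR protein, had a level of 5.99 ± 0.12 (SD, n = 6) in these controls.

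The pancreas is mostly exocrine tissue. Acinar cells make digestive enzymes and their precursors, package them in zymogen granules and release them into ducts, whose cells add bicarbonate and water. Islets scattered through the tissue hold the endocrine cells that secrete insulin, glucagon, somatostatin and pancreatic polypeptide, and vessels, fibroblasts, macrophages, nerves and nearby fat and lymph nodes complete the tissue that a dissection can contain. In bulk RNA of this kind, fewer cells of a type and less RNA per cell cannot be told apart.

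Array medians lay between 4.49 and 4.6, background rows had a median of 3.74, and the median row lay at 4.523 with 18004 of the 30143 genes above it. Precision is limited by having 6 arrays. Correlations between arrays over all genes were 0.985 to 0.990 for pairs with control replicate 2 and 0.992 to 0.995 for all other pairs. Control replicate 2 stood apart from the others. It lay more than 1 log2 unit above the 6-array median in 406 genes, against 15 to 54 genes for each other array, and more than 1 log2 unit below it in 40 genes, against 12 to 66, counted over 17849 genes above the median row and below the end of the scale. List means that rest on that array are therefore given with their SD with and without it, and correlations likewise.

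Regulatory sequences of the genes that the results turn on are shown first. The 4 stretches below are the 250 bases before the RefSeq start site (build GRCm38.p6), printed 5′ to 3′ on the gene's own strand. Cela1 and Prss1 are examples of the enzyme genes whose signal reached the end of the array scale, with more of the marked motifs than many of those genes hold. Reg2 and Reg3b are examples of the Reg genes that differed most between the controls. Capitals mark matches, on either strand, to TATAAA (the core promoter box that TBP binds), CACCTG (an E-box of the kind bound by the acinar complex of PTF1A), TTTCCC (the partner box of that complex) and TTCNNNGAA (a palindrome of the kind bound by STAT factors, added after the values were seen).
Cela1, chr15:100687921-100688170, minus strand: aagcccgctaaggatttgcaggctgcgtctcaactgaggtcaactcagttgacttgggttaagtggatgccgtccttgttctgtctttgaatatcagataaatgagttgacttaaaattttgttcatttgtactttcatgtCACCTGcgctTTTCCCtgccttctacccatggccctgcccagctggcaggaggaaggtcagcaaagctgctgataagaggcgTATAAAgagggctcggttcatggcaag
Prss1, chr6:41458680-41458929, plus strand: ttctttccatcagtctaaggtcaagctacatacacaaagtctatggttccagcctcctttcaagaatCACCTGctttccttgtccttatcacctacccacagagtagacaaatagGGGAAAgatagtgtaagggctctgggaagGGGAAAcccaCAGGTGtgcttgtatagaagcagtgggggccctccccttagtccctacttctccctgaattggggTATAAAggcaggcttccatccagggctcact
Reg2, chr6:78404905-78405154, plus strand: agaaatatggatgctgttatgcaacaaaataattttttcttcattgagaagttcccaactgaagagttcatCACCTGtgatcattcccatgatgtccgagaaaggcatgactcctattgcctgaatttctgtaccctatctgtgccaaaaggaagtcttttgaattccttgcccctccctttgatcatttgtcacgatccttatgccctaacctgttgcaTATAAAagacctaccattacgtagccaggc
Reg3b, chr6:78370635-78370884, plus strand: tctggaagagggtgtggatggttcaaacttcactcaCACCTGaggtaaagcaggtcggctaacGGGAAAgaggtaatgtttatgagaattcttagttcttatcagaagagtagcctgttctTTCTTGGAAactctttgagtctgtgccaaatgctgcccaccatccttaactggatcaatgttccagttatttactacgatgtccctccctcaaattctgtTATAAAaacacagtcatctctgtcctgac
In Cela1 CACCTG began at -109, TTTCCC at -99 and TATAAA at -27, counted from the start site. Among these 4 stretches, only Reg3b held TTCNNNGAA. Among the secretory genes at the end of the scale, Prss2, Reg3d and Rnase1 held it too. Some other genes at the end of the scale held fewer motifs than Cela1 and Prss1: Cpa1 held TTTCCC only, and Sycn and Pla2g1b held none. Others held as many or more: Prss2 held all 4 motifs, and Cel and Cela3a each held 4 CACCTG and 1 TTTCCC.

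Of the 33 acinar secretory genes at the end of the scale, described next, 27 had an entry in the promoter table. Searched over the 250 bases on both strands, 17 of those 27 stretches (62.96%) held CACCTG, against 17.22% of all 32851 promoters in the table. TATAAA was found in 9 of 27 (33.33%, against 12.37% of all) and TTTCCC in 10 of 27 (37.04%, against 21.95%). Both CACCTG and TTTCCC were present in 7 of 27 (25.93%, against 3.61%). For the islet hormone and beta cell genes, 25 of 33 measured genes had entries, with 32 promoters, of which 10 held CACCTG (31.25%) and 3 held TATAAA (9.38%). TTTCCC was in 5 of these 32 (15.62%). CACCTG and TTTCCC were both present in 4 of the 32 (12.5%), also above the 3.61% of all promoters. TTCNNNGAA occurred in 7.02% of all promoters, in 3 of the 27 acinar stretches (11.11%) and in 4 of the 32 islet and beta cell promoters (12.5%). These are matches of letters in a window, listed without a test, and the members of the trypsinogen, elastase and Reg families are related copies, so their promoters are not independent.

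Nearly all measured digestive enzyme genes reached the highest value of the array scale. The deposited scale ended at 19.93, and 141 genes (0.468% of all 30143) stood at that value on every control array. Among them 33 were classed as products that acinar cells secrete, 55 were ribosomal, small or other non-coding RNAs, 42 were pseudogenes, 3 were predicted genes of other type, and 8 were other genes. Genes with clone or predicted names were not searched for acinar products, so 33 may be too low. Another 14 genes reached the end on some but not all arrays. At the end of the scale neither order nor spread can be read, so for these genes the arrays show only that the signal was at least that high. Brightness depends on each probe set as well as on the RNA, and ranks of array signal are not ranks of transcript number.

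Of 29 measured genes on the acinar enzyme list, 27 were at the end of the scale on all 6 arrays. They cover protein digestion (the trypsinogens Prss1, Prss2, Prss3, Try4 and Try5, the chymotrypsinogens Ctrb1 and Ctrl, the elastases Cela1, Cela2a, Cela3a and Cela3b, and the carboxypeptidases Cpa1 and Cpb1), fat digestion (Pnliprp1, Pnliprp2, the lipase cofactor Clps, Cel and Pla2g1b), starch (Amy2b) and RNA (Rnase1). Granule and protective proteins were there as well: Zg16, Gp2, Sycn, Cuzd1, Dmbt1, Klk1 and the trypsin inhibitor Spink1. Tff2, a mucosal peptide, and the secreted lectins Reg1 and Reg3d stood at the same value on every array. The 8 genes classed as other were Eef1a1, Hspa8, Rpl4, Rpl41, Serinc3, the mitochondrial genes ND3 and ND6, and 2210010C04Rik. That last symbol is a clone name, and whether its product is an acinar one was not checked. Both defining acinar enzymes, Cpa1 and Cel, were among the genes at the end. The predicted genes Gm10334 and Gm5771, and the near-identical copies within the trypsinogen, amylase and elastase families, can share probes, so the level of each copy is uncertain.

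The other 2 measured enzymes were below the end. Ctrc, chymotrypsin C, read 14.15, 13.57, 14.37, 14.30, 14.70 and 14.82 on replicates 1 to 6. It was lowest on replicate 2 and highest on replicate 6. Amy1, the salivary and liver type of amylase, read 16.41 on 5 arrays and 16.31 on replicate 2. A value shared by several arrays is called a plateau here; 364 genes below the end of the scale shared 1 value on 3 or more control arrays, so their spread may be compressed.

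The brightest named genes below the end of the scale were Nupr1, a stress-response regulator, at 1 shared value just under the end on all 6 arrays, Rmrp, an RNA-processing ribonucleoprotein RNA, at 19.80 ± 0.02 (SD, n = 6), the row named Rpl35 at 19.79 ± 0.04, and 9 pseudogenes of ribosomal proteins or Tpt1, including Rpl21-ps7, Rpl30-ps10 and Tpt1-ps5. The Rpl35 row lies on chromosome 1, and whether it reads the ribosomal gene or a copy of it was not checked. The metallothioneins, which bind zinc and copper, were close behind. Mt1 read 18.78 on replicate 1 and between 18.89 and 18.90 on the other 5 arrays. Mt2 was lower on replicates 1 and 5, at 17.81 and 17.55, than on the other 4, at 18.62 to 18.76.

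Of 23 measured genes of acinar regulation and exocytosis, 1 was at the end of the scale, 21 others lay above the median row, and 6 were among the brightest 5% of genes. The water channel Aqp12 (19.24 ± 0.22, SD, n = 6) and the cargo receptor Tmed6 (18.68 ± 0.33) were the brightest below the end, and Xbp1, the transcription factor of the unfolded protein response, had a level of 13.89 ± 0.22. The acinar transcription factors were dimmer. Ptf1a, the factor of the promoter box above, read 8.39, 7.74, 8.06, 8.64, 8.19 and 8.98 on replicates 1 to 6, and Rbpjl, its partner, read 11.62, 10.90, 11.76, 11.58, 11.95 and 11.88. Bhlha15 (Mist1), which maintains the secretory architecture, had the widest spread of the list at 7.74, 7.48, 8.88, 8.34, 8.51 and 9.16. All 3 genes were lowest on replicate 2, Ptf1a and Bhlha15 were highest on replicate 6, and Nr5a2, another acinar factor, was lowest on replicate 2 at 10.18 and highest on replicate 3 at 11.62. Replicate 2 was the lowest array for 14 of the 21 genes, against 24.3% of all 17849 genes. The list mean was 9.13 on replicate 2 and 9.46 to 9.64 on the others, and its SD was 0.18 with and 0.08 without that array.

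The pancreatic microRNA genes also differed between arrays. Mir216a, Mir216b and Mir217 lie within 1 stretch of chromosome 11 (GRCm38.p6, chr11:28746191-28763835), and their mature products are known to be abundant in acinar cells. Mature sequences from RefSeq are printed with the seed, bases 2 to 8, in capitals, because the seed sets which messages a microRNA can pair with.
mmu-miR-216a-5p: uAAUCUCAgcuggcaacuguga
mmu-miR-216b-5p: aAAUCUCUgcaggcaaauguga
mmu-miR-217-5p: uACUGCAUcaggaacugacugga
The seeds of miR-216a-5p and miR-216b-5p share their first 6 of 7 bases, and that of miR-217-5p is different, so no pair shares a whole seed. The array rows measure the hairpin or its precursor, not the mature product. Mir216a read 6.64, 7.83, 8.37, 7.84, 8.42 and 9.18 on replicates 1 to 6. Mir217 read 6.03, 6.87, 7.59, 7.06, 7.57 and 8.41, and Mir216b read 4.69, 6.51, 6.27, 5.85, 6.46 and 7.01. All 3 hairpins were lowest on replicate 1 and highest on replicate 6, a range of 2.31 to 2.54 log2 units, and none had its lowest value on replicate 2. These 3 genes were chosen after their values were seen. The hairpin row of Mir375, a microRNA of islet cells, stayed at 4.37 to 4.62.

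Genes of the secretory pathway, which fold and export the enzymes, were bright as a group: 22 of 27 measured genes were among the brightest 5% of genes. P4hb, a disulfide isomerase, sat on a plateau at 18.77 (18.59 on replicate 2), Hsp90b1, the chaperone GRP94, had a mean of 16.50 ± 0.71 (SD, n = 6), and Dnajc3 had 16.11 ± 0.20. A subset differed between arrays. Creld2, a gene induced by endoplasmic reticulum stress, read 14.54, 13.19, 13.29, 12.14, 13.59 and 11.97 on replicates 1 to 6, and Hsp90b1 read 17.14, 16.77, 16.93, 15.48, 16.93 and 15.73. Both were lowest on replicates 4 and 6. Hspa5 (BiP), Pdia3, Calr and Hyou1 were lowest on replicate 4 as well, at 13.47, 12.31, 11.82 and 10.41, while Herpud1 was lowest on replicate 2 at 14.49. Of 26 genes below the end of the scale, 10 had a range of at least 1 log2 unit between arrays, against 6.12% of all 29988 genes below the end. Bright genes had wider ranges in general, 19.2% to 23.9% of genes with means between 10 and 18.

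Amino acid transport and synthesis genes, which supply enzyme production, had 10 of 27 measured members among the brightest 5%. Gatm, which makes a creatine precursor, had a mean of 16.61 ± 0.31 (SD, n = 6), the transporter Slc7a8 15.82 ± 0.58 and the asparagine synthetase Asns 14.86 ± 0.28. Replicate 2 was the lowest array for 16 of the 26 genes above the median row, against 24.3% of all such genes. Chac1, a glutathione-degrading enzyme induced by the transcription factor ATF4, had the widest spread of the list. It read 9.44, 7.65, 6.68, 6.33, 8.38 and 7.90 on replicates 1 to 6. Fgf21, a hormone that responds to the same stress pathway and is made by acinar cells, read 10.70, 9.44, 7.32, 8.24, 11.96 and 10.27. Chac1 was highest on replicate 1 and Fgf21 on replicate 5, and replicates 3 and 4 held the lowest 2 values of both genes.

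Of 28 measured genes of oxidative phosphorylation, the mitochondrial respiratory machinery, all lay above the median row and 4 were among the brightest 5%. None had a range of 1 log2 unit, against 9.35% of all genes above the median row, and their median SD was 0.167, against 0.149 for those genes. Ndufb9 had the highest mean, 17.28 ± 0.26 (SD, n = 6). Replicate 2 was the lowest array for 22 of these 28 genes, against 24.3% of all genes above the median row. For ribosomal proteins, 16 of 37 listed genes were measured through rows of 1 gene, 7 were among the brightest 5%, and the 15 below the end had a median SD of 0.091.

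The Reg family of secreted lectins showed the widest list range. Reg1, Reg2, Reg3a, Reg3b, Reg3d and Reg3g lie near each other on chromosome 6. Members of the family are known to rise in acinar cells under stress or inflammation. Reg1 and Reg3d were at the end of the scale on all 6 arrays, and Reg4 was at 3.63, below the median row. Reg2 read 15.79, 16.12, 19.77, 17.05, 19.40 and 15.75 on replicates 1 to 6. Reg3b read 14.17, 12.96, 18.36, 12.22, 14.83 and 10.75, and Reg3a read 6.17, 6.46, 10.08, 6.59, 7.85 and 6.39. Replicate 3 was the highest and replicate 5 the next highest for all 3. Reg3g read 7.53 on replicate 3 and 5.37 to 5.87 on the others. The highest and lowest arrays differed by 7.61 log2 units for Reg3b and by 4.02 for Reg2, so Reg3b signal spanned 195-fold among controls of 1 genotype. Replicate 2, which stood apart in other lists, was not an extreme here. In sequence, the windows of Reg2 and Reg3b shown above share TATAAA about 30 bases before the start and 1 CACCTG each. Reg1 and Reg3g also held TATAAA there, at -30 and -27. Reg3a and Reg3d had no TATAAA in their windows, although Reg3d was at the end of the scale and Reg3a had a range of 3.91 log2 units. A relation of this box to level or range was not tested.

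Of 26 measured duct markers, 23 lay above the median row, 2 were among the brightest 5%, and 3 had a range of at least 1 log2 unit, against 6.12% of all genes. Their median SD was 0.173, against 0.134 over all genes. The brightest, Clu (14.96 ± 0.13, SD, n = 6), Muc1 (14.82 ± 0.48) and the keratin Krt18 (10.74 ± 0.41), are also made by acinar or other epithelial cells. The defining duct markers were lower: Sox9 was 7.37 ± 0.29, Krt19 7.14 ± 0.23 and the chloride channel Cftr 4.68 ± 0.16, close to the median row. Sox9 was lowest on replicate 2 at 6.81, whereas Krt19, which mesothelial cells also make, was lowest on replicate 1 at 6.79. The duct list mean was 7.38 on replicate 2 and 7.55 to 7.69 on the others.

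**Figure D1:**
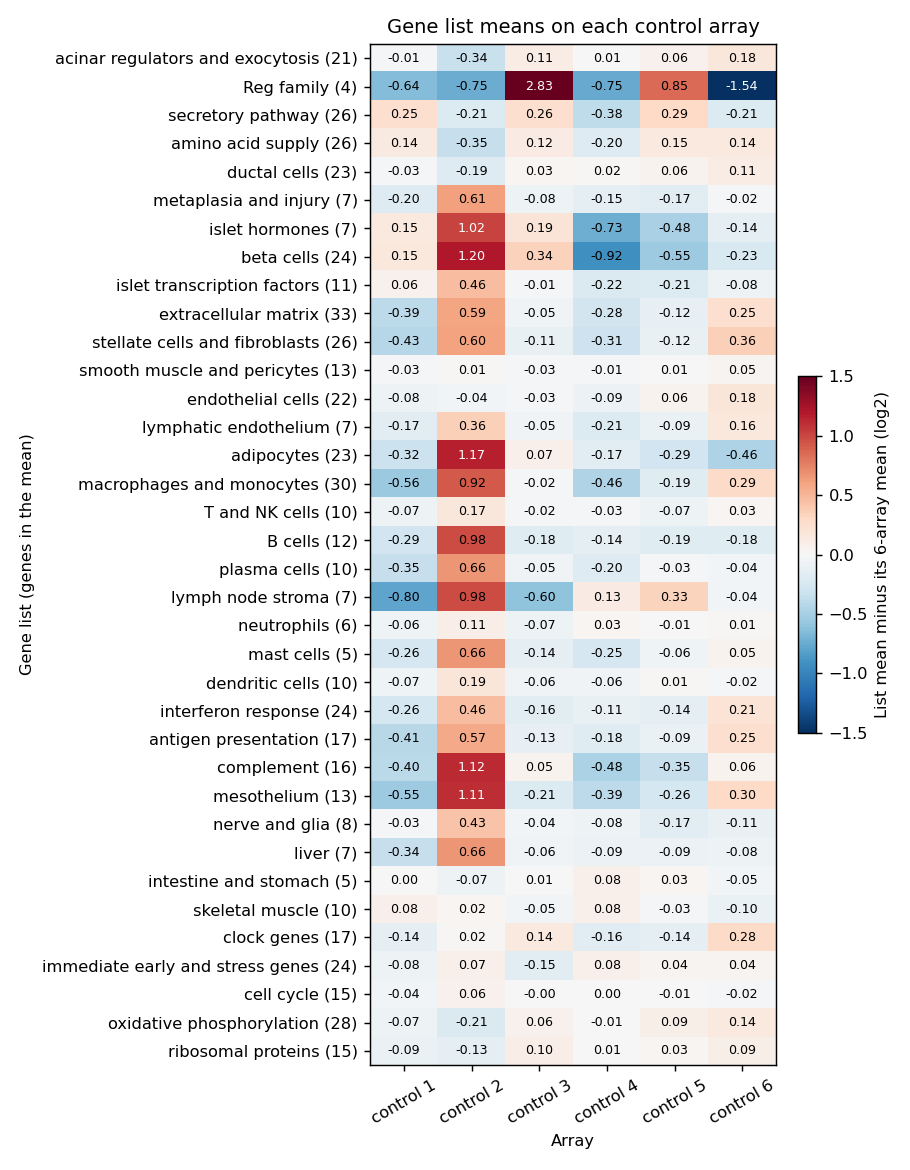
Heat map of gene list means on each control array. Rows are gene lists with the number of genes in the mean (above the median row and below the end of the scale), columns are control replicates 1 to 6, and colour and printed numbers give the list mean on an array minus its mean over the 6 arrays in log2 units, with colours clipped at 1.5. Replicate 2 is high for adipocyte, beta cell, mesothelium and complement lists and low for acinar regulators, and replicate 3 is high for the Reg family.

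Islet hormones were bright although islets are a small part of the tissue. Iapp, the beta cell peptide amylin, read 16.86, 17.73, 17.23, 13.76, 15.04 and 15.71 on replicates 1 to 6. Gcg, glucagon, read 15.53 on 4 arrays, 15.96 on replicate 6 and 16.13 on replicate 2. Ins2, insulin, stayed between 13.27 and 13.40 and read 13.28 on 4 arrays, so both Gcg and Ins2 sat on plateaus that can hide differences. Sst, somatostatin, read 12.09, 13.33, 11.52, 11.09, 11.81 and 12.29, and Ppy, pancreatic polypeptide, read 8.53, 10.41, 8.85, 7.55, 7.56 and 7.55. Replicate 2 was highest for Iapp, Gcg, Sst, Ppy and Pyy, and the lowest value of Iapp and Sst was on replicate 4. Pyy, peptide YY, was lowest on replicate 5 at 6.80. Ins1 was not analysed here, and Mafa (5.28 ± 0.08, SD, n = 6) and the delta cell factor Hhex (5.12 ± 0.12) lay not far above the median row on every array.

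Of 26 measured beta cell and neuroendocrine genes, 15 had a range of at least 1 log2 unit between controls, against 6.12% of all genes and 23.9% of genes with means between 10 and 12. G6pc2, an islet glucose-6-phosphatase, read 11.47, 15.37, 13.58, 8.56, 9.93 and 11.51 on replicates 1 to 6, a range of 6.81 log2 units. The granule proteins behaved alike: Chga read 14.59, 16.56, 15.15, 12.34, 13.55 and 13.94, and Scg3 read 12.24, 14.69, 12.73, 9.19, 10.29 and 10.70. Cpe, the prohormone carboxypeptidase, Scg2 and the zinc transporter Slc30a8 were also highest on replicate 2, at 15.06, 14.68 and 13.71, and lowest on replicate 4, at 10.02, 9.75 and 9.26. Glp1r, the GLP-1 receptor, had a mean of 14.75 ± 0.32 (SD, n = 6), with its highest value on replicate 6 at 15.18. The list mean read 8.75, 9.80, 8.94, 7.67, 8.04 and 8.36, so replicates 1 to 3 were above replicates 4 to 6, and it spanned 4.37-fold. Its SD was 0.75 with and 0.52 without replicate 2, so the spread did not rest on that array alone.

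**Figure D2:**
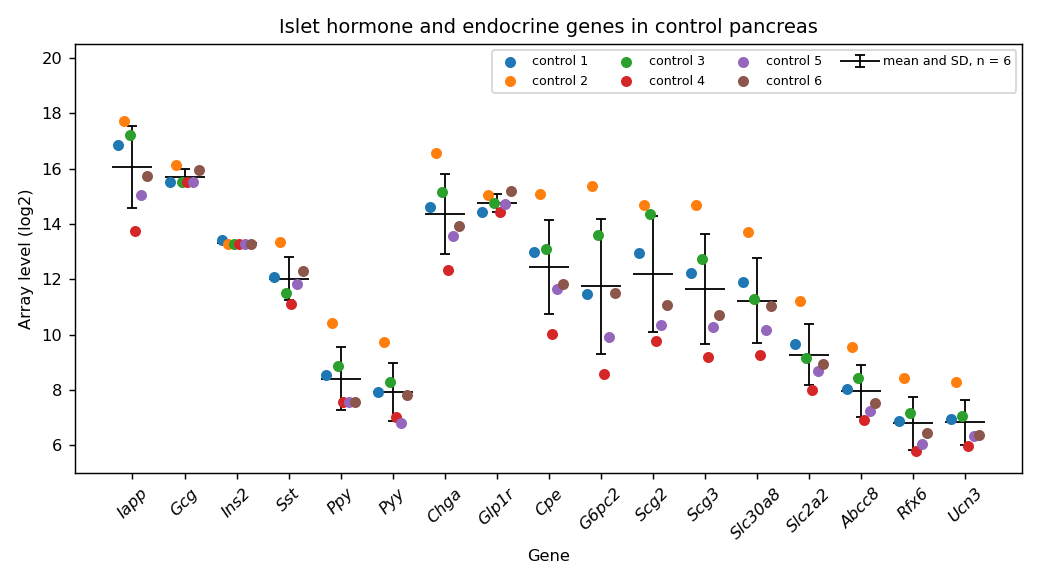
Array levels (log2, vertical axis) of 17 islet hormone and endocrine genes (horizontal axis) on the 6 control arrays, each array a coloured point, with black bars for the mean and SD over the 6. Control 2 is the highest point for all but Ins2 and Glp1r, control 4 is the lowest for most genes, and Ins2 and Gcg hardly move.

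Islet transcription factors lay near the middle of all genes by mean level, with a median percentile of 56.4, against 96.3 for islet hormones. Pdx1 read 5.02 to 5.48, and 11 of 15 measured factors lay above the median row, against 18004 of all 30143 genes. Rfx6, which is needed for endocrine cell development, read 6.88, 8.45, 7.15, 5.79, 6.04 and 6.46 on replicates 1 to 6, and Isl1 read 5.96, 7.15, 5.84, 5.36, 5.50 and 6.03. Both were highest on replicate 2 and lowest on replicate 4, as the beta cell genes were. Among 399 named genes outside the beta cell list (above the median row, SD of at least 0.5), those with the highest Pearson r with its mean over the 6 arrays were Chic1 (0.997), Slc38a4 (0.996), Rfx6 (0.992) and Prss53 (0.99). Without replicate 2 these were 0.994, 0.988, 0.993 and 0.976. In all, 48 of the 399 had an r of at least 0.9. These correlations are a description over 6 arrays.

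Matrix and fibroblast genes held a middle level. All 33 measured matrix genes lay above the median row, 4 were among the brightest 5%, and 16 had a range of at least 1 log2 unit. Over all genes above the median row, 9.35% had such a range. Dcn, decorin, read 15.83, 17.32, 16.40, 15.94, 16.40 and 16.54 on replicates 1 to 6. Fn1, fibronectin, read 8.83, 12.46, 9.82, 9.22, 9.50 and 10.54, and Dpt, dermatopontin, had a mean of 12.70 ± 0.88 (SD, n = 6). The fibrillar collagens were lower: Col1a1 had a mean of 7.38 ± 0.45 and Col3a1 8.68 ± 0.66. Vim, the filament of mesenchymal cells, read 13.39 on replicate 2, 11.82 on replicate 6 and 10.11 to 10.74 on the others. Replicate 2 was the highest array for 25 of 33 matrix genes and 17 of 26 fibroblast and stellate genes, against 21.1% of all 17849 genes. The SD of the list mean was 0.36 with and 0.25 without that array for matrix, and 0.40 and 0.30 for fibroblast and stellate genes. Of the defining markers, Pdgfrb was at 6.44 ± 0.26, and Pdgfra was not analysed here.

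None of 23 endothelial and none of 16 smooth muscle and pericyte genes had a range of 1 log2 unit, against 6.12% of all genes. Their median SDs were 0.138 and 0.093, against 0.134 over all genes. Pecam1 was at 7.30 ± 0.25 (SD, n = 6) and Cdh5 at 7.91 ± 0.26. Both were highest on replicate 6, at 7.69 and 8.29. Kdr, the VEGF receptor, led the list at 8.63 ± 0.24, and Myh11 of smooth muscle was at 5.46 ± 0.10. Lyve1, which marks lymphatic endothelium and some macrophages, was higher on replicate 2, at 10.25, than on the others, where replicate 4 was lowest at 7.47, while the lymphatic factor Prox1 stayed at 5.73 to 6.14.

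Markers of fat and of the peritoneal surface differed between the arrays. Of 24 measured adipocyte genes, 15 had a range of at least 1 log2 unit, against 6.12% of all genes, and 20 of the 23 above the median row were highest on replicate 2, against 21.1% of all such genes. Adipoq, adiponectin, read 7.85 on replicate 2 and 4.96 to 5.15 on the other 5 arrays, near the median row. Car3, a carbonic anhydrase abundant in fat, read 9.82, 14.84, 11.85, 11.54, 10.32 and 8.96 on replicates 1 to 6. Plin1, the lipid droplet protein, read 6.26 on replicate 2 and 5.10 to 5.68 elsewhere, and Scd1, a fatty acid desaturase, had a mean of 11.65 ± 0.91 (SD, n = 6). Lgals12, also among the brightest of the list, went the other way. It read 10.11, 9.82, 10.49, 9.85, 10.25 and 10.03 on replicates 1 to 6, lowest on replicate 2. The list mean was 8.45 on replicate 2 and 6.82 to 7.35 on the others, and its SD was 0.60 with and 0.20 without it. Replicate 2 was also highest for 11 of 13 mesothelium genes, a list that shares Dcn and Efemp1 with the matrix list: Upk3b read 11.05 there, 9.53 on replicate 6 and 8.11 to 8.56 on the rest, and Msln was 6.04 there, 5.74 on replicate 6 and 4.99 to 5.20 on the rest. The SD of the mesothelium mean was 0.61 with and 0.32 without replicate 2.

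All 30 measured macrophage and monocyte genes lay above the median row, 19 had a range of at least 1 log2 unit, and 27 were highest on replicate 2. Over all genes above the median row those shares were 9.35% and 21.1%. Lyz2, lysozyme, read 10.24, 14.71, 11.73, 10.98, 12.11 and 13.80 on replicates 1 to 6. Folr2, a marker of resident tissue macrophages, read 8.83, 11.67, 9.83, 8.65, 8.95 and 9.80. The defining markers Adgre1 and Csf1r were at 6.96 ± 0.45 and 7.76 ± 0.56 (SD, n = 6). Replicate 2 was the highest and replicate 6 next for Lyz2 and Adgre1. Cfp, Anxa1, Muc16 and Tgfbi were the genes outside the list most like its mean, with r of 0.997, 0.996, 0.994 and 0.994 over 6 arrays and 0.991, 0.988, 0.984 and 0.989 without replicate 2. The list mean read 6.65, 8.13, 7.19, 6.75, 7.02 and 7.50, with an SD of 0.55, or 0.34 without replicate 2.

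Of 24 measured T and NK cell genes, 14 lay below the median row and none had a range of 1 log2 unit, with Cd3e at 4.68 ± 0.18 (SD, n = 6). Over all 30143 genes, 18004 lay above that row, and 6.12% of genes below the end of the scale had a range of at least 1 log2 unit. The B cell marker Ms4a1 (CD20) read 8.31 on replicate 2 and 4.34 to 5.26 on the others. All 12 B cell genes above the median row were highest on replicate 2, against 21.1% of all such genes, and the list mean was 6.39 there and 5.12 to 5.27 elsewhere. Its SD was 0.48 with and 0.06 without that array. The filter takes the mean over 6 arrays, so a dim gene that is high on replicate 2 alone can pass it. Of 19 measured B cell genes 7 did not pass, and the count of 12 may follow in part from the filter. Ighm, the IgM heavy chain, read 6.18, 13.55, 8.44, 7.68, 9.01 and 9.33 on replicates 1 to 6, and Jchain, which joins secreted IgM and IgA, read 8.33 on replicate 2 and 6.01 to 6.73 on the others. Igh-VS107, an immunoglobulin heavy chain gene, read 14.20 on replicate 2 and 5.04 to 6.09 elsewhere. Neutrophil genes were near the median row: 12 of 18 lay below it and S100a9 read 4.80 to 5.23.

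Cxcl13, the chemokine that draws B cells into follicles, had an SD of 3.80, next to that of Xist among the genes named by rule. It read 6.65, 17.14, 8.39, 11.25, 14.14 and 12.12 on replicates 1 to 6, a range of 10.49 log2 units. It was highest on replicate 2 and next on replicate 5. The other lymph node genes did not share this range. Ccl19 was at 3.92 ± 0.03 (SD, n = 6), below the median row, in the row used here. It is also named in rows of several symbols, which were left out. Ltb read 5.16 to 5.52, and Ccr7 read 6.55 on replicate 2 and 5.34 to 5.93 elsewhere. Without replicate 2, the SD of the lymph node list mean was 0.48, against 0.65 with it, and in both cases Cxcl13 was 1 of only 7 genes in the mean. The genes most like that mean were Ifi203-ps (r = 0.907 over 6 arrays), Cdh11 (0.9), Btla (0.897) and Thbd (0.886), and without replicate 2 these were 0.777, 0.781, 0.943 and 0.742.

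Antigen presentation and interferon genes were expressed on every array. B2m, the light chain of class I molecules, read 15.93, 18.38, 16.89, 16.63, 17.49 and 18.31 on replicates 1 to 6, and the class II gene H2-Ab1 read 9.59, 12.40, 10.64, 10.30, 10.50 and 11.48. Replicates 2 and 6 were the highest and replicate 1 the lowest for both. Of 28 measured interferon response genes, 6 had a range of at least 1 log2 unit, against 6.12% of all genes, led by Gbp2, which read 8.96 on replicate 2, 8.88 on replicate 6 and 6.97 to 7.62 on the others. In the complement list, Serping1, the C1 inhibitor, read 14.20 on replicate 2 and 10.85 to 12.37 elsewhere, and the SD of the list mean was 0.59 with and 0.26 without that array.

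The X-linked and Y-linked genes split the controls. Xist, the RNA that silences an X chromosome, read 14.42 on replicate 4 and 14.97 on replicate 5, and 5.51 to 5.59 on the other 4 arrays. The Y-linked gene Uty read 7.53, 7.81, 7.55, 5.13, 4.92 and 4.69 on replicates 1 to 6, Eif2s3y read 7.35, 7.68, 8.06, 5.57, 5.26 and 4.95, and Kdm5d read 6.09, 6.35, 6.34, 4.97, 4.76 and 4.91. Replicates 1 to 3 thus had high Y-linked and low Xist signal and replicates 4 and 5 the reverse. Replicate 6 was low for both, and the labels give no sex to set against it. Kdm6a, an X-linked gene known to escape silencing, was highest on replicates 4 and 5 at 8.96 and 9.58, and read 8.53 on replicate 6 and 8.21 to 8.46 on replicates 1 to 3.

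C7 and Gal also differed between replicates 1 to 3 and replicates 4 to 6. C7, a complement component, read between 9.60 and 10.04 on replicates 1 to 3 and 6.41, 6.09 and 6.13 on replicates 4 to 6. Gal, the neuropeptide galanin, read 10.50, 9.16, 10.17, 15.82, 13.29 and 13.09, high where C7 was low. Both are among the 15 genes named for the largest SD, and whether either goes with sex was not tested. The beta cell list mean was also higher on replicates 1 to 3 (8.75 to 9.80) than on replicates 4 to 6 (7.67 to 8.36). The share of all genes that separate the arrays in this way was not counted, so no background is given for these splits.

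**Figure D3:**
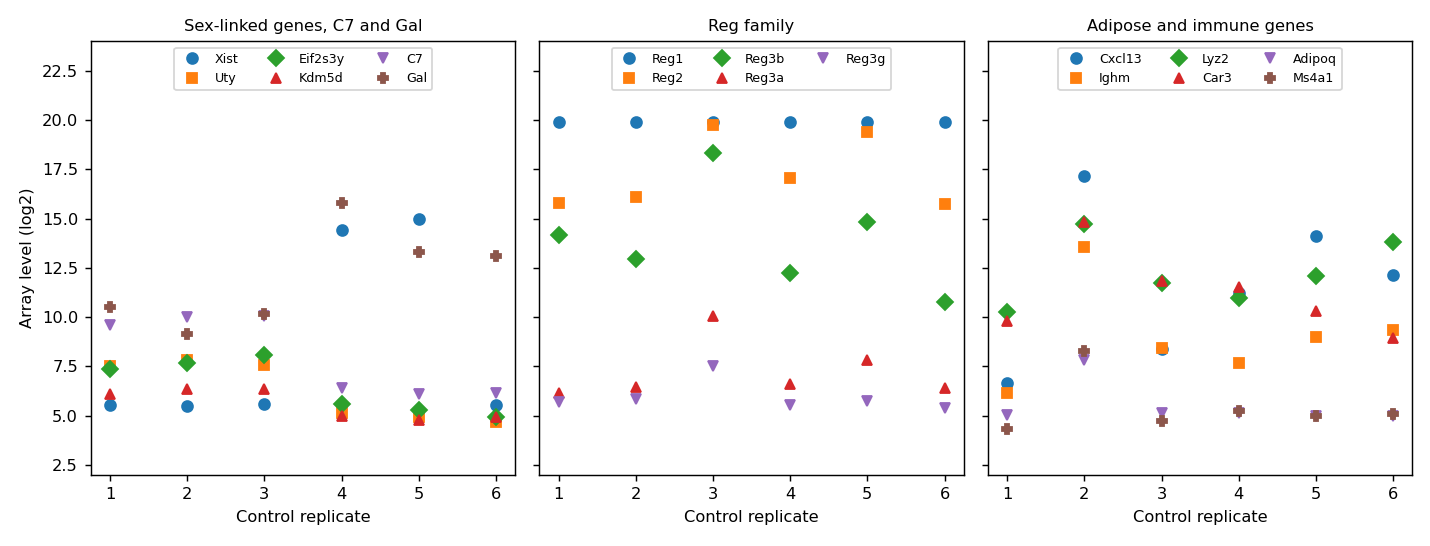
Array levels (log2, vertical axis) by control replicate (horizontal axis) in 3 panels: sex-linked genes with C7 and Gal, the Reg family, and adipose and immune genes, 1 symbol per gene. Xist is high on replicates 4 and 5 only, Reg2, Reg3a and Reg3b peak on replicate 3, and Adipoq and Ms4a1 are high on replicate 2 only.

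Clock genes differed between the arrays. Arntl (Bmal1), the activator of the clock, read 8.49, 8.02, 6.88, 8.91, 8.82 and 7.70 on replicates 1 to 6. Its repressor Nr1d1 (Rev-erb alpha) read 6.62, 7.85, 7.35, 6.22, 6.34 and 9.65, Nr1d2 read 8.41, 9.23, 10.41, 8.17, 8.53 and 10.41, and Dbp, a clock output gene, read 6.59, 7.05, 7.45, 6.29, 6.11 and 7.95. Arntl was lowest on replicates 3 and 6, where Nr1d2 was highest, and highest on replicates 4 and 5, where Nr1d1 and Dbp were lowest. Of 17 clock genes, all above the median row, 6 had a range of at least 1 log2 unit, against 9.35% of all such genes. The labels give no time of day.

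Of 30 measured immediate early and stress genes, 24 lay above the median row and below the end of the scale and 5 below the median row. The immediate early genes Fos and Egr1 were dim. Fos read 3.92 to 4.53 and Egr1 4.16 to 4.78, near or below the median row, and Hspa1a, the inducible heat shock protein, read 3.97 to 4.11. Cdkn1a (p21), a cell cycle inhibitor, had the widest spread of the stress list, at 8.63, 8.22, 7.63, 7.66, 9.81 and 8.07 on replicates 1 to 6, and was highest on replicate 5. Of 24 measured cell cycle genes 15 lay above the median row, against 18004 of all 30143 genes. None had a range of 1 log2 unit, against 6.12% of all genes. Mki67, a marker of dividing cells, read 5.43 to 6.35.

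Markers of other organs differed in how many lay above the median row, as 18004 of all 30143 genes did. Of 18 intestine and stomach genes 13 lay below the median row, with Fabp2 at 4.12 ± 0.07 (SD, n = 6). Of 17 skeletal muscle genes 7 did, about the share of all genes, with Ckm at 5.19 ± 0.06. Of 18 liver genes 11 did, with Alb at 6.46 ± 0.29. The liver list still held bright members that other cells make: the hepcidin genes Hamp2 (15.06 ± 0.47) and Hamp (12.20 ± 0.45), and Ttr (10.10 ± 0.75), which islet cells also express. Hp, haptoglobin, was highest on replicate 2, 3.71 log2 units above its lowest array, and read 6.29 to 7.17 on the other 5. Of 19 genes that mark metaplasia or injury 12 lay below the median row, and the nerve marker Sox10 was at 4.25 ± 0.07.

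The controls differed little for most genes and widely for a few. Over 29988 genes below the end of the scale the median SD was 0.134 log2 units, 1836 genes (6.12%) had a range of at least 1 log2 unit and 282 of at least 2. Among genes above the median row 1669 of 17849 (9.35%) had a range of at least 1. The median SD rose from 0.12 for genes just above the median row to 0.262 for genes with means between 10 and 12, and fell to 0.066 for the 114 genes between 18 and 20, of which 76.3% had the same value on 3 or more arrays. The rule for naming genes passes over predicted genes and, by the form of the symbol, antigen receptor segments. It did not catch Igh-VS107, an immunoglobulin heavy chain gene. The genes named by rule with the largest SD were Xist (SD 4.73), Cxcl13 (3.80), Igh-VS107 (3.53), Reg3b (2.62), Gal (2.49), Ighm (2.48), G6pc2 (2.46), Scg2 (2.10), Car3 (2.07) and C7 (2.02). Of the 279 genes above the median row with a range of at least 2, 228 were highest on replicate 2. Without that array 1062 genes had a range of at least 1 and 99 of at least 2.

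**Figure D4:**
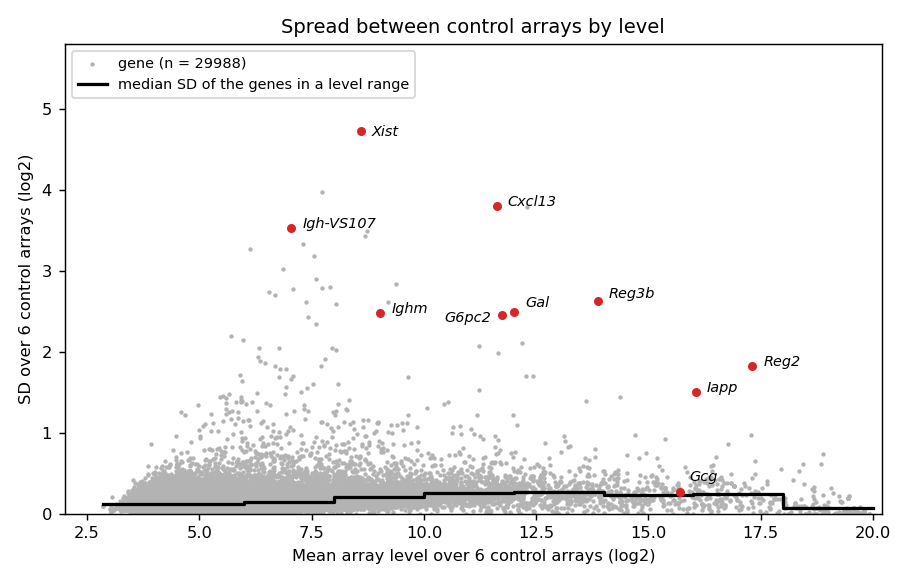
SD over the 6 control arrays (log2, vertical axis) against the mean array level (log2, horizontal axis) for 29988 genes below the end of the scale, as grey points, with the median SD of each level range as a black step line and 10 named genes in red. Most genes lie under an SD of 0.5, Xist is the widest, and the median falls to 0.066 above a level of 18.

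Co-variation of cell compartments was tested over 16 list means, 120 pairs, with genes shared by both lists of a pair left out. No pair passed an adjusted p of 0.05 by the exact permutation test of Pearson's r (two-sided, Benjamini-Hochberg over 120 pairs; the smallest adjusted p was 0.0556), and none did by Spearman's rho, while 25 pairs had an unadjusted p under 0.05. With 720 pairings of 6 arrays the smallest p that 1 pair can give is 0.00139. Of the 20 pairs with an r of at least 0.9 in size, 18 were positive, and 9 kept that size and sign without replicate 2.

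Matrix genes went with macrophage genes (r = 0.994, rho = 1, exact permutation p = 0.00139 and 0.00278, adjusted p = 0.0556 and 0.111, n = 6 arrays). That r was 0.986 without the 2 arrays farthest from the median, replicates 2 and 6, and 0.989 without replicate 2. Matrix and stellate lists gave r = 0.993 and rho = 1 (exact permutation p = 0.00139 and 0.00278, adjusted p = 0.0556 and 0.111, n = 6), r = 0.985 without replicates 2 and 6, and r = 0.991 without replicate 2. Beta cell genes and islet transcription factors gave r = 0.955 and rho = 0.943 (exact permutation p = 0.00417 and 0.0167, adjusted p = 0.0694 and 0.182, n = 6), with r = 0.886 without replicates 2 and 4 and 0.917 without replicate 2. Acinar regulators and duct genes gave r = 0.98 and rho = 0.943 (exact permutation p = 0.00556 and 0.0167, adjusted p = 0.0694 and 0.182, n = 6), with r = 0.716 without replicates 2 and 6, r = 0.894 without replicate 2, and r = 0.622 with the median in place of the mean of list members.

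Some relations rested on replicate 2. Adipocyte and B cell lists had r = 0.959 and rho = 0.771 over 6 arrays (exact permutation p = 0.0528 and 0.103, adjusted p = 0.218 and 0.536), but r = 0.306 without replicate 2 and 0.336 without replicates 2 and 3. Acinar regulators and macrophages had r = -0.552 and rho = 0.143 over 6 arrays (exact permutation p = 0.257 and 0.803, adjusted p = 0.406 and 0.976), and r = 0.999 over the other 5. Without replicate 2, acinar regulators, matrix and macrophage lists were therefore ordered alike: lowest on replicate 1 and highest on replicate 6. Array medians ran the other way, 4.59 on replicate 1 and 4.49 on replicate 6, and the part of that in the result was not tested. Subtracting each array's median let 23 pairs, all positive, pass the adjusted threshold.

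**Figure D5:**
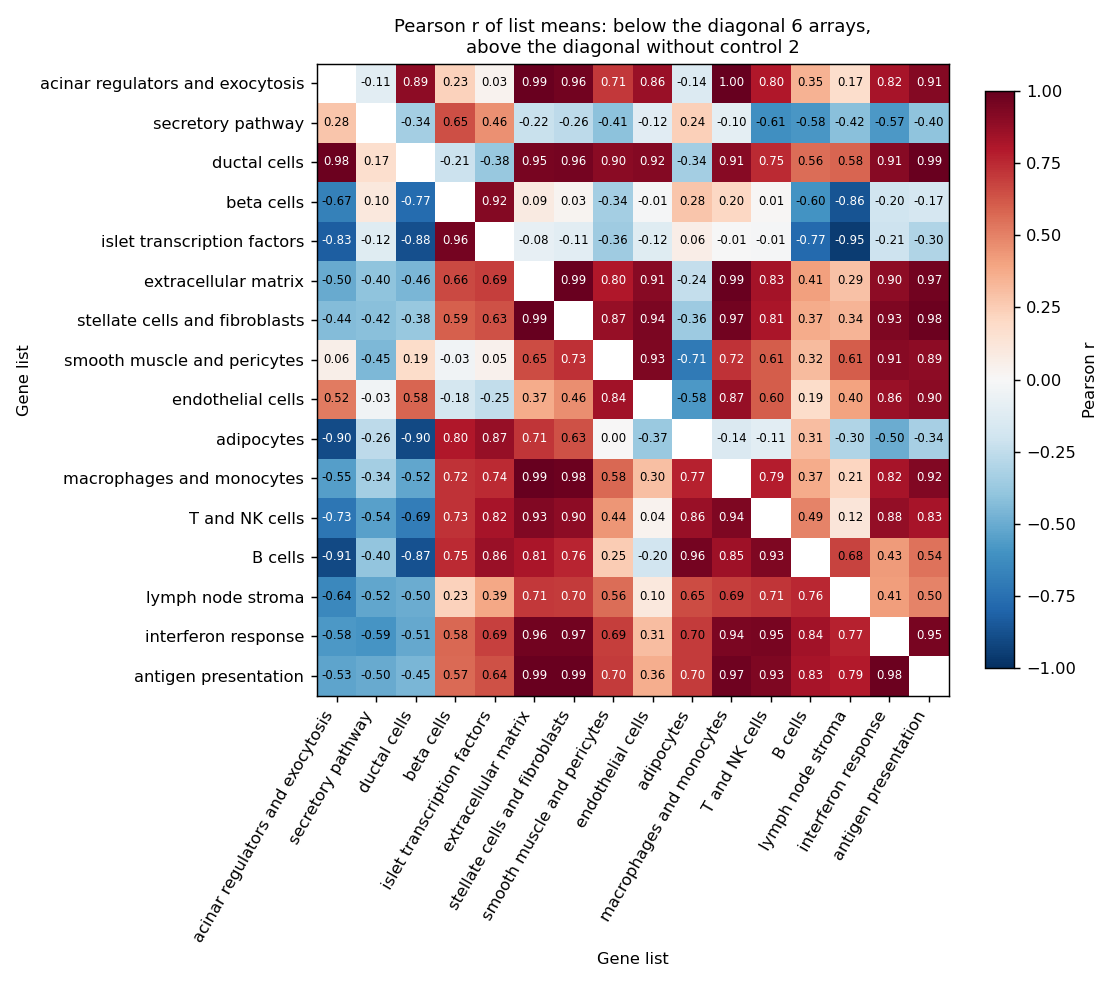
Matrix of Pearson r between the means of 16 gene lists (both axes), with the 6 control arrays below the diagonal and the 5 arrays other than control 2 above it, on a colour scale from -1 to 1. Acinar regulators change from -0.552 to 0.999 with macrophages when control 2 is left out, and matrix with macrophages stays at 0.99.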

How the data were processed

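The deposited values are log2 signals of a mouse Affymetrix array, summarised by RMA in Affymetrix Expression Console 1.4, per the submitters' processing notes, which also name Transcriptome Analysis Console 3.1. The 6 control arrays were read from the table of 72688 rows; 6732 control rows were left out, and of the 65956 others 30607 had 1 gene symbol, 2143 several and 33206 none. Only rows of 1 symbol were used. Identifiers matched a RefSeq gene table for 22920 rows, and 833 symbols were updated. The row with the highest mean stood for a gene. Values at the end of the scale (19.93 on the log2 scale) were left out of SDs and correlations. A gene above the median row (4.523) counted as measured above the dim range, and a gene among the brightest 5% by mean as bright. Both use the mean over all 6 arrays, so a dim gene that is high on 1 array can pass the median row.

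Means and SDs describe 6 arrays. Gene lists (39 lists, 865 entries, 749 measured, 58 others only in rows of several symbols) and members were chosen with earlier results of these data known. Named genes were the 12 brightest below the end of the scale, the 15 with the largest SD, the 5 steadiest of the 500 brightest, for each list the 3 brightest, the widest and the defining markers, and for 4 lists the 4 genes most like the list mean; others were picked with their values known (among them Hspa5, Pdia3, Calr, Hyou1, Herpud1, Nr5a2, Slc30a8, Elavl1 and the microRNA genes). List means were compared by exact permutation tests with Benjamini-Hochberg adjustment. The code was tested on simulated data. Python 3.11.15, pandas 2.3.3, numpy 2.4.6 and scipy 1.17.1 were used. Alternatives were other rows per gene, other filters, centring, a new quantile normalization and leaving out each array. Promoter and microRNA sequences are from RefSeq tables of GRCm38.p6.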

Additional observations from a re-analysis of the deposited data

Results flagged for a closer look

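Values below are those where 1 of the 6 arrays stood further from the rest than a gap test at the 95% level allows. Chance gives such a gap in about 1 of 20 groups, and 9.59% of the 17849 genes above the median row and below the end of the scale had one. Nothing about the cause was tested.

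Replicate 2 was highest for the list means of adipocytes (8.45), complement (8.57), liver (9.57), plasma cells (8.20), metaplasia and injury (7.26), dendritic cells (6.41), B cells (6.39), mast cells (6.38), and nerve and glia (6.19), and lowest for acinar regulators (9.13). The plasma cell list holds Xbp1, which acinar cells also express, but Xbp1 was not high on replicate 2 (13.79, mean 13.89). Replicate 2 was highest for 20 of 23 adipocyte, 13 of 16 complement and 12 of 12 B cell genes in the means. In other lists fewer members were highest there: 4 of 10 plasma cell, 3 of 7 liver, 5 of 8 nerve and glia, 4 of 7 metaplasia, 3 of 5 mast cell and 6 of 10 dendritic cell genes. The widest members there were Ighm (13.55), Hp (10), Sncg (10.77) and, for metaplasia, Vim (13.39).

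Among single genes replicate 2 was highest for Igh-VS107 (14.20), Efemp1 (13.38), Hp (10), Jchain (8.33), Ms4a1 (8.31), Adipoq (7.85), Isl1 (7.15) and Btla (6.43). It was lowest for the acinar genes Rbpjl (10.90), Aqp12 (18.80), Tmed6 (18.02), Gatm (16.03) and Amy1 (16.31), for Asns (14.34), Slc7a8 (14.71) and P4hb (18.59), for the duct list genes Muc1 (13.90), Clu (14.70), Krt18 (9.92) and Sox9 (6.81), and for Rpl30-ps10 (19.75).

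Other arrays stood apart less often among the genes named. Replicate 3 was highest for Reg3g (7.53), replicate 4 for Egr1 (4.78), replicate 6 for Rmrp (19.84) and replicate 1 for Ins2 (13.40), and replicate 1 was lowest for Mt1 (18.78) and Rpl35 (19.70). Ins2, Mt1, Amy1, Asns, Clu, P4hb, Rmrp, Tmed6, Rpl30-ps10 and Rpl35 share 1 value on 3 or more arrays, so a small step is enough for such a gap.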

How the results depend on the processing

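The number of genes with a range of at least 1 log2 unit (1836) was 282 at a threshold of 2 log2 units and lay between 1062 (without replicate 2) and 1696 when each array was left out in turn. The number of list pairs past the adjusted threshold (0) became 23, all positive, with arrays centred on their medians and 11, all positive, with a new quantile normalization; it was 0 without each array in turn, where fewer pairings exist. Of the pairs named, r of acinar regulators with macrophages turned from -0.552 to 0.999 without replicate 2 and lay between -0.799 and 0.999 over the arrays left out in turn; the cause was not tested. The number with a range of at least 2 was 99 without replicate 2; this count and the r of single genes with list means without that array were added after the data were seen. Leaving out arrays gave 141 to 153 genes at the end of the scale and a median SD of 0.126 to 0.135. Of 312 alternative values of list means 311, and of 1112 of gene levels 1110, moved by less than 1 SD. Plateaus and the end of the scale limit what the arrays show for the brightest genes. No paired analysis was possible because only 1 group is described.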
